A study of Mus musculus with 2 samples.

Results

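The CD8 T cells of the mouse peritoneal cavity were examined 3 days after an intraperitoneal dose of 1 mg zymosan, the yeast cell wall preparation used to set off sterile peritonitis. They were 326 of 30733 cells, 172 of 16000 in the M-Cd36-/- library and 154 of 14733 in the M-Cd36 fl/fl library. The members were chosen by measured RNA counts. A barcode entered the analysis with at least 200 detected genes and at most 10% mitochondrial UMIs (unique molecular identifiers, 1 per captured RNA molecule). A CD8 T cell then had at least 2 UMIs over the CD3 chains Cd3d, Cd3e and Cd3g, at least 1 UMI over Cd8a and Cd8b1, no Cd4 or Ncr1 UMI, at most 1 UMI over the B cell genes Cd79a and Ms4a1, and under 15 UMIs per 10000 over the macrophage genes C1qa, C1qb and C1qc. The M-Cd36-/- mice (strain LysM-Cre (x) floxed CD36) carried the floxed allele with a Cre recombinase driven by the lysozyme gene Lyz2, which is active in macrophages, neutrophils and other myeloid cells. The M-Cd36 fl/fl mice (strain floxed CD36) carried the floxed allele, and their label names no Cre. All mice were 10 to 14 weeks old, all received zymosan, and each library was 1 pool of 4 replicates, so no mouse without zymosan was set beside them. With 1 library per genotype no difference has a replicate check and no test between genotypes was possible. Intervals are given at 95% and reflect the error of counting alone.

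CD8 T cells recognise peptides on MHC class I through the T cell receptor, with CD8 as coreceptor, and kill infected or altered cells with perforin and granzymes. Naive cells circulate through lymph nodes under the chemokine receptor Ccr7 and keep the transcription factors Lef1 and Tcf7. Memory cells keep some of these genes and add the chemokine gene Ccl5, the granule protein gene Nkg7, Ly6c2 and the interleukin-2 and interleukin-15 receptor chain Il2rb. Part of them carries lectin-like receptors shared with natural killer (NK) cells, such as CD94 (Klrd1), NKG2A (Klrc1) and NKG2D (Klrk1). CD36, the scavenger receptor that the floxed allele targets, is best known from macrophages.

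The gate was checked against a receptor gene it did not use. Trbc2, a constant region of the T cell receptor beta chain, had a UMI in 94.2% of the M-Cd36-/- and 93.5% of the M-Cd36 fl/fl CD8 T cells, at median depths of 3470 and 4321.5 UMIs per cell. In cells gated as B cells it had one in 2.52% and 2.43%, at median depths of 3976.5 and 4588 UMIs. At least 1 UMI of Trac, Trbc1 or Trbc2 was present in 97.7% and 98.7% of the members. Both CD8 chains were detected in 80 and 77 members, Cd8a alone in 16 and 10, and Cd8b1 alone in 76 and 67. Cd8a homodimers are the form found on many unconventional T cells, and gamma delta T cell genes were low: their 4 constant region genes summed to 48.3 UMIs per 1000000 UMIs (CPM) in M-Cd36-/- and 37.1 CPM in M-Cd36 fl/fl members. At the edge of the rule, 33 of the M-Cd36-/- and 29 of the M-Cd36 fl/fl members had only 1 UMI over Cd8a and Cd8b1. Exactly 2 CD3 UMIs were present in 12 and 14 members, while 12 and 7 cells were left out with 1. C1q was at 10 to 15 per 10000 in 19 and 5 members, while 8 and 1 were left out at 15 to 20.

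The libraries held 116600732 and 117238057 UMIs in 16543 and 15537 barcodes, and the members contributed 641941 and 782037 UMIs. Members of the M-Cd36-/- library were shallower, with 872 to 15090 UMIs per cell against 1551 to 16641. The libraries shared 383 barcodes by sequence, none of which was a CD8 T cell in both. Scrublet, a doublet caller run on each library, marked 6.51% and 5.66% of cells, among them 0 and 2 members, and no cell was removed for it. A few members carried RNA of another cell type: 4 of the M-Cd36-/- and 10 of the M-Cd36 fl/fl members had over 200 UMIs per 10000 of 11 myeloid and MHC class II genes (Lyz2, Cd74, Tyrobp, Fcer1g, Fn1, H2-Aa, H2-Ab1, H2-Eb1, Csf1r, Cst3 and Ctss). The lowest of them stood at 296 and 230 per 10000 and the highest of the other members at 139 and 148. Their median depth was 11583.5 and 12137 UMIs, and they are called myeloid-high below. This limit was set after the data were seen, and results are given with and without these cells where that mattered. All 12 macrophage markers were detected at low level in the members, at a summed 5641 CPM in M-Cd36-/- and 5864 CPM in M-Cd36 fl/fl, against 65723 and 69028 CPM in macrophages. The 9 B cell markers summed to 2759 and 3873 CPM (977 and 1048 CPM without the myeloid-high cells), and the 3 mesothelial markers were at 0. Cd74 is among these B cell markers and among the 11 genes above, so part of that fall was built into the choice of cells. Lyz2, Csf1r and Fn1 are likewise both macrophage markers and among the 11 genes. Without the myeloid-high cells the macrophage markers summed to 5692 and 4333 CPM, and the 5 dendritic cell markers to 5.04 and 1.49 CPM, against 112 and 102 CPM with them.

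CD8 T cells made up 1.08% (0.92 to 1.25) of cells in the M-Cd36-/- library and 1.05% (0.89 to 1.22) in the M-Cd36 fl/fl library. The difference was 0.03 percentage points with an interval of -0.21 to 0.26. Of all T cells they were 27.4% and 26.4%, with a difference of 1.02 points (-4.10 to 6.11). A CD4 gate drawn the same way held 77 and 76 cells, and 378 and 351 T cells had a UMI of neither coreceptor. Outside the macrophage gate the CD8 T cell share was 2.31% and 1.80%, a difference of 0.51 points (0.06 to 0.97). Outside the macrophage and B cell gates together it was 3.65% and 3.52%, a difference of 0.13 points (-0.65 to 0.91). The B cell gate held 2738 and 4194 cells, so the size of the share outside macrophages moved with the B cell count, and that part was not tested. Leaving out the myeloid-high cells gave 168 and 144 CD8 T cells.

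Effector genes were found in nearly all members, and genes of naive cells in many. At least 1 UMI of the effector group (Ccl5, Nkg7, Gzma, Gzmb, Gzmk and Prf1) was present in 94.8% of M-Cd36-/- and 93.5% of M-Cd36 fl/fl members. Ccr7 had a UMI in 50.6% and 52.6% of members, and Lef1 in 47.7% and 58.4%. With each cell thinned to 1500 UMIs, which left out 2 M-Cd36-/- cells and no M-Cd36 fl/fl cell, the shares were 81.8% and 79.9% for the effector group, 27.6% and 27.3% for Ccr7 and 25.3% and 27.9% for Lef1. In thinned macrophages, cells that should lack most of these genes, the effector group reached 15.8% and 13.6%, Ccr7 0.74% and 0.81%, and Lef1 0.049% and 0.052%. Unthinned, 46.1% and 40.1% of macrophages had an effector group UMI, and 39.9% and 35.2% had a Ccl5 UMI. Ccl5 reached 201 UMIs in a M-Cd36-/- macrophage, so macrophages are no clean negative for this group. Killing genes were rare in spite of the frequent effector group. A UMI of any of Gzma, Gzmb, Gzmk and Prf1 was present in 19.8% and 19.5% of members. Gzma, a granule protease, was seen in 9 and 6 cells, and 1 cell held 22 of its 47 UMIs in M-Cd36-/- and another 27 of 33 in M-Cd36 fl/fl. Of the 12 cytokines and chemokines on the list only Ccl5 and Ltb, a lymphotoxin subunit, reached 50 CPM, Ltb with 653 CPM in M-Cd36-/- and 514 CPM in M-Cd36 fl/fl members. Ifng had 3 and 0 UMIs, Tnf 2 and 0, and Il2 3 and 1. The inhibitory receptors Pdcd1, Havcr2, Lag3 and Tigit had at most 8 UMIs in any library, and none of the 10 inhibitory receptor genes on the list reached 50 CPM. The residency integrin Itgae had 2 and 0 UMIs and the residency factor Zfp683 none.

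**Figure D1:**
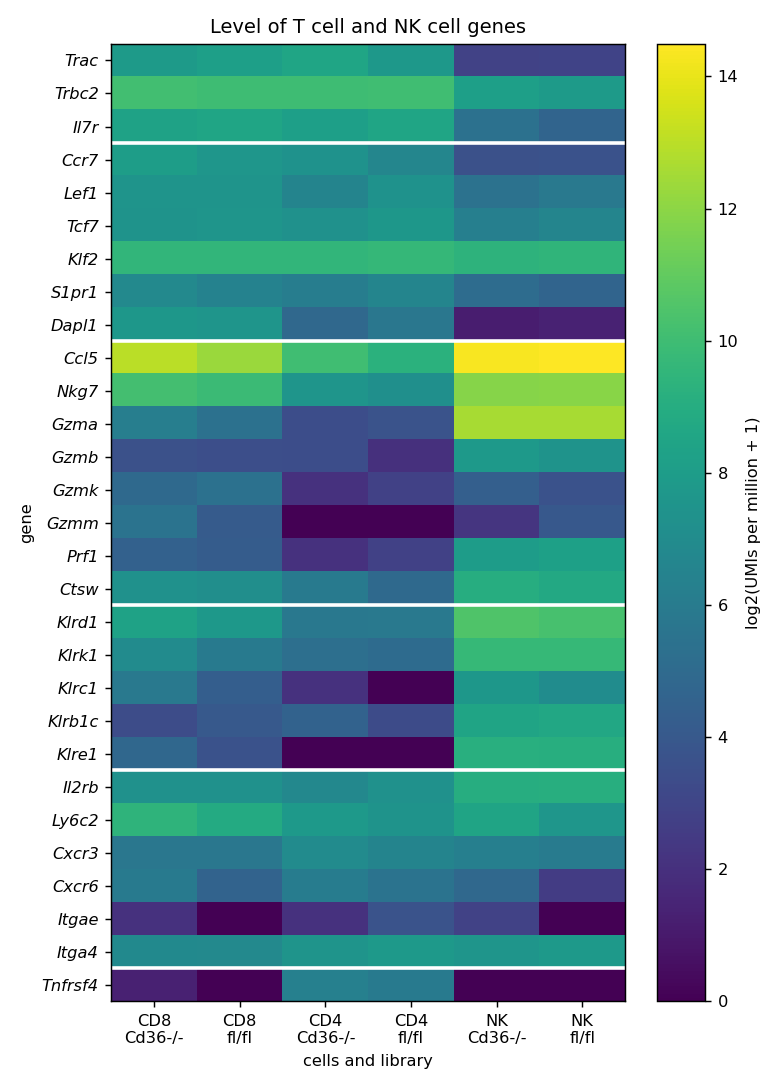
Level of T cell and NK cell genes (rows) in CD8 T cells, CD4-gated T cells and NK-gated cells of each library (columns), as log2(CPM + 1), with M-Cd36-/- left of M-Cd36 fl/fl. CD8 T cells hold Ccr7, Lef1 and Dapl1 beside Ccl5, Nkg7 and Klrd1, and stay far under NK cells for Gzma (73.2 and 42.2 CPM in CD8 T cells).

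Ccl5, a chemokine that recruits T cells and monocytes, was spread unevenly from cell to cell. At least 3 Ccl5 UMIs were present in 101 of 172 M-Cd36-/- members (58.7%, 51.0 to 66.2) and in 79 of 154 M-Cd36 fl/fl members (51.3%, 43.1 to 59.4). No UMI was found in 48 and 56 members, and 23 and 19 had 1 or 2, so few cells lay near the limit. Per cell the median was 10 UMIs in M-Cd36-/- (highest 176) and 4 UMIs in M-Cd36 fl/fl (highest 241). Among the cells with at least 3 UMIs the medians were 46 and 44. The same limit was passed by 97.3% and 98.6% of NK cells, 26.0% and 14.5% of CD4-gated T cells, 8.64% and 7.70% of macrophages and 0.58% and 0.95% of B cells. Ccl5 lies on chromosome 11 at 83525778 to 83530518, minus strand, in GENCODE M21 (GRCm38, the mm10 assembly).

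**Figure D2:**
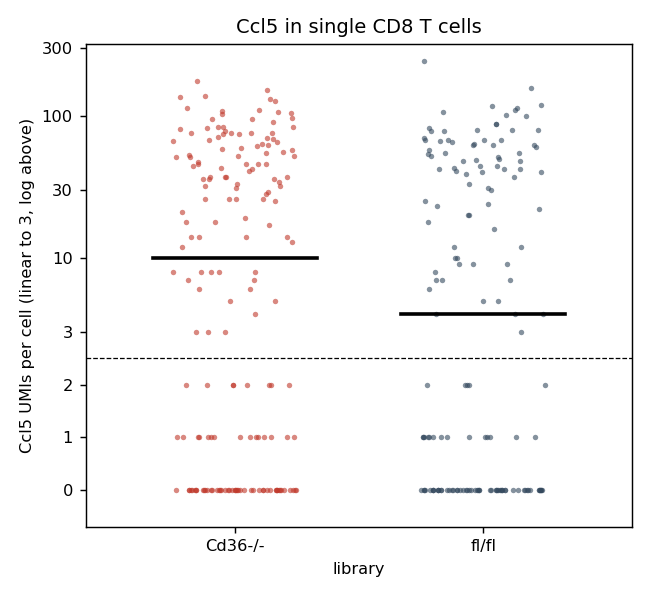
Ccl5 UMIs in each CD8 T cell (points, spread sideways at random) of the M-Cd36-/- library (left) and the M-Cd36 fl/fl library (right), on an axis that is linear to 3 and logarithmic above. Bars mark the medians of 10 and 4 UMIs, the dashed line the limit of 3 UMIs, with 101 and 79 cells above it.

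The Ccl5 limit, chosen after the data were seen, cuts a range and does not define a cell type, but the cells on its sides also differed in other genes. Of 1817 other genes compared, 43 (2.37%) were higher and 37 (2.04%) lower in Ccl5-high cells beyond the counting interval in both libraries, and 7 went opposite ways in the libraries. Cells with at least 3 Ccl5 UMIs had median depths of 3253 and 3992 UMIs, and cells with none 3444.5 and 4146.5. Ctla2a, a cathepsin inhibitor of activated T cells, stood at 519 CPM in Ccl5-high and 11.4 CPM in Ccl5-zero cells of M-Cd36-/-, and at 509 and 78.3 CPM in M-Cd36 fl/fl. Id2, a transcriptional regulator of effector cells, stood at 635 and 132 CPM in M-Cd36-/- and 456 and 74.9 CPM in M-Cd36 fl/fl. The log2 ratio of Ly6c2 was 2.17 (1.69 to 2.69) in M-Cd36-/- and 1.98 (1.55 to 2.43) in M-Cd36 fl/fl. Klrk1 had 78 UMIs in Ccl5-high and 3 in Ccl5-zero cells of M-Cd36-/-, and 44 and 2 in M-Cd36 fl/fl. Klrk1 in both libraries, and Ctla2a in M-Cd36-/-, were compared only through their level in Ccl5-high cells. Klrc1 had 35 and 0 UMIs in M-Cd36-/- and 15 and 0 in M-Cd36 fl/fl, so each of its UMIs outside the 1-to-2 range came from Ccl5-high cells. Nkg7 was less uneven, with log2 ratios of 1.05 (0.77 to 1.34) and 1.12 (0.87 to 1.38). Part of the effector differentiation list did not follow. Of its 11 compared genes 3 were higher in both libraries beyond the interval, while S100a6 and Vim went opposite ways. S100a6, a calcium-binding protein gene, had ratios of 0.88 (0.50 to 1.27) in M-Cd36-/- and -0.52 (-0.81 to -0.24) in M-Cd36 fl/fl, the second being 0.06 without the myeloid-high cells. Lgals1 had 1.10 (0.71 to 1.52) and -0.01 (-0.25 to 0.23). The cell cycle gene Stmn1 had 1.43 (0.33 to 2.73) and -0.97 (-1.54 to -0.41). Single cells weigh on these ratios, as counts of Mki67, Top2a, Stmn1 and Birc5 together show. In M-Cd36 fl/fl, 1 Ccl5-zero cell held 87 such UMIs and another 15, and 1 Ccl5-high cell held 31. Both of these Ccl5-zero cells had only 1 UMI over Cd8a and Cd8b1. In M-Cd36-/-, 1 Ccl5-high cell held 21. The Stmn1 ratios without these cells were not tested.

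Some genes of naive cells ran the other way. Of 12 compared genes of the naive and circulation list, 7 were lower and 2 higher in Ccl5-high cells in both libraries, beside 20.8% lower and 35.1% higher over all genes compared. Beyond the interval 4 were lower in both libraries (Igfbp4, Dapl1, Lef1 and Klf2) and 1, Il7r, was higher. Igfbp4, an insulin-like growth factor binding protein found in naive T cells, had 2 UMIs in Ccl5-high and 11 in Ccl5-zero cells of M-Cd36-/-, and 4 and 17 in M-Cd36 fl/fl, and was compared only through its level in Ccl5-zero cells. Dapl1 had log2 ratios of -1.03 (-1.62 to -0.44) and -0.94 (-1.55 to -0.34), and Lef1 of -1.0 (-1.60 to -0.40) and -0.65 (-1.19 to -0.12). Tcf7, with ratios of -0.06 (-0.70 to 0.61) and -0.08 (-0.60 to 0.46), did not differ beyond counting error. Ccr7 was lower in Ccl5-high cells of M-Cd36-/- (-0.90, -1.42 to -0.38), while in M-Cd36 fl/fl the ratio was -0.14 (-0.67 to 0.40). The interleukin-7 receptor Il7r, which maintains naive and memory cells, was at 385 CPM in Ccl5-high and 252 CPM in Ccl5-zero cells of M-Cd36-/-, and at 397 and 289 CPM in M-Cd36 fl/fl. The MHC class II genes were also lower in Ccl5-high cells when all members were counted. H2-Aa had log2 ratios of -0.49 in M-Cd36-/- and -1.95 in M-Cd36 fl/fl, and of -0.13 and 0.28 without the myeloid-high cells. It is among the 11 genes that set the myeloid-high limit, so a shift was built into the choice of cells.

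**Figure D3:**
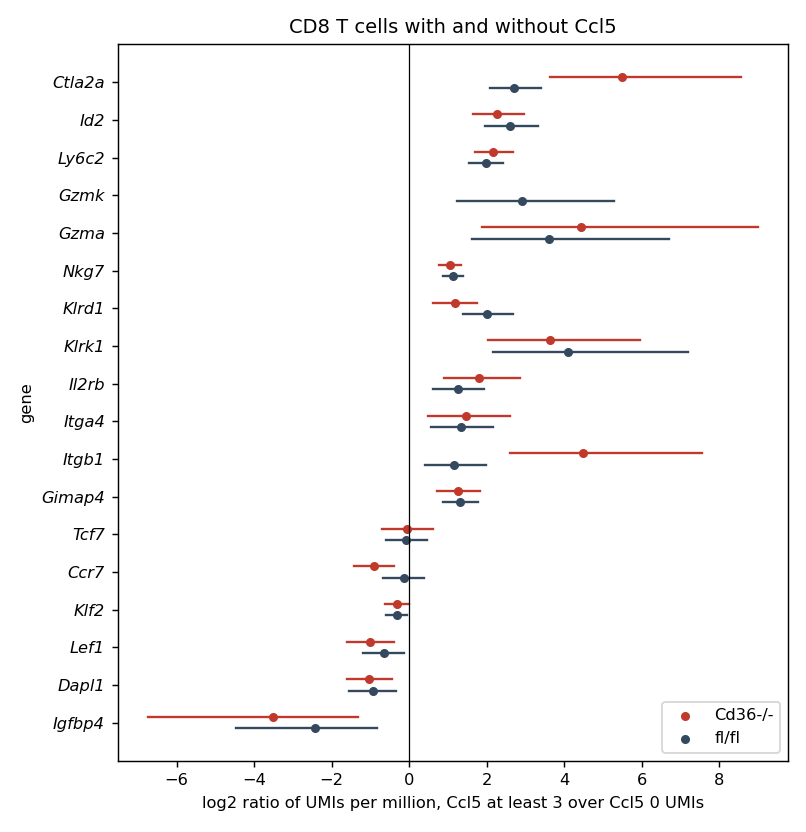
Log2 ratio of CPM between CD8 T cells with at least 3 Ccl5 UMIs and those with none, per gene, in M-Cd36-/- (red, upper) and M-Cd36 fl/fl (dark, lower), with exact 95% intervals for counting error. A gene with 0 UMIs in a group has no point. Ctla2a, Id2, Ly6c2 and Nkg7 lie right of 0 in both libraries, Dapl1 and Igfbp4 left of 0, and Tcf7 at -0.06 and -0.08.

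The promoters of genes at the ends of this axis are shown because they are where transcription of these genes begins. RefSeq promoter windows on GRCm38.p6, each 300 bases long, 250 before and 50 after the start, were found for 8 of 8 genes looked up (Nkg7, Ly6c2, Id2, Klrk1, Ctla2a, Dapl1, Lef1 and Igfbp4). Each was searched on both strands for TGTGGT, the core that RUNX factors bind, AGGTGT, the T-box element, and CTTTGA, the TCF/LEF element. Capitals mark the matches, read on either strand, and no match overlaps another.
Nkg7, chr7:43436888-43437187, plus strand: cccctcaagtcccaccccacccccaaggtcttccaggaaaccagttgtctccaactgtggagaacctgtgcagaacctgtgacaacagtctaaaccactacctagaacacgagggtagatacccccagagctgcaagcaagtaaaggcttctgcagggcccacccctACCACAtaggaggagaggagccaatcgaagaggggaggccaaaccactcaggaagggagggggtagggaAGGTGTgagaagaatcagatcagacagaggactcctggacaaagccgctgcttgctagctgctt
Ly6c2, chr15:75111922-75112221, minus strand: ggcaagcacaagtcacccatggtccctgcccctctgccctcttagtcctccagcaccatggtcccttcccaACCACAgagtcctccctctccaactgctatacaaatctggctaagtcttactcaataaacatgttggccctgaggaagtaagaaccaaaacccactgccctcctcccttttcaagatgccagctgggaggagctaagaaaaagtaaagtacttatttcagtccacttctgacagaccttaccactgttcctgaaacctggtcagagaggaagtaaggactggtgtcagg
Klrk1, chr6:129623815-129624114, minus strand: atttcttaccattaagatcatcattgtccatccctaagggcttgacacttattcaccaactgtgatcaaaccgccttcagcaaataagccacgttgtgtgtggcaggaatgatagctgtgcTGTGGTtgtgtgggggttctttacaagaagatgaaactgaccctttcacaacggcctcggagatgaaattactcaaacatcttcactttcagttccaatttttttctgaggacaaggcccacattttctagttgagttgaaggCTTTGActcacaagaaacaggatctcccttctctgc
Dapl1, chr2:59484403-59484702, plus strand: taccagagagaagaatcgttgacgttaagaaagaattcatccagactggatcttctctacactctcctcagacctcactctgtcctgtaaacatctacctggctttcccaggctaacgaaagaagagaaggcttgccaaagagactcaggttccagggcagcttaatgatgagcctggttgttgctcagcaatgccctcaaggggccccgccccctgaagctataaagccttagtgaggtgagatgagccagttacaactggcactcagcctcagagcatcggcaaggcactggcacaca
Igfbp4, chr11:99040994-99041293, plus strand: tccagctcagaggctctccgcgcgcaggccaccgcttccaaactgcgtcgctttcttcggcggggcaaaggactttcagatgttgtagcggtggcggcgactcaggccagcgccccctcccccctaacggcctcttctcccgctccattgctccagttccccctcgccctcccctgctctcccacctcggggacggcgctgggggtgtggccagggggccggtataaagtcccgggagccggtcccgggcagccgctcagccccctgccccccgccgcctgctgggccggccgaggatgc
Nkg7 held 1 RUNX and 1 T-box match, Ly6c2 1 RUNX match, and Klrk1 1 RUNX and 1 TCF/LEF match. Dapl1 and Igfbp4 held none. Of the windows not shown, those of Id2 and Ctla2a, genes higher with Ccl5, held none, and of 4 windows of Lef1, a gene lower with Ccl5, 1 held 2 T-box matches and 1 held 1 T-box and 2 TCF/LEF matches. Over all 32851 promoter windows the RUNX core was present in 16.8%, the T-box element in 13.7%, the TCF/LEF element in 16% and at least 1 of them in 38.8%. A match describes the letters and is no evidence that a factor binds.

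Set against CD4-gated T cells of the same library, CD8 T cells were higher in Ccl5, in genes of cytotoxic granules and in Dapl1, and lower in part of the effector differentiation genes. Of 2007 genes compared, those with at least 50 CPM in either population, 20 (0.997%) were at least 2-fold higher in CD8 T cells in both libraries and 91 (4.53%) at least 2-fold lower. Ccl5 stood at 8194 CPM in CD8 and 1072 CPM in CD4-gated cells of M-Cd36-/-, and at 5094 and 602 CPM in M-Cd36 fl/fl. Nkg7 had log2 ratios of 2.60 (2.22 to 3.01) and 2.67 (2.25 to 3.11), and Klrd1 of 2.54 (1.83 to 3.35) and 1.92 (1.23 to 2.68). Dapl1 ratios were 2.82 and 1.81, those of Ly6c2 1.63 and 1.45, and those of the cystatin Cst7 and the granule protease Ctsw 1.69 and 4.30, and 1.39 and 2.23. Cst7 was compared only through its level in CD8 T cells, and its M-Cd36 fl/fl ratio rests on very few UMIs in CD4-gated cells. Of the cytotoxic granule list, 4 of 5 compared genes, Cst7 included, were at least 2-fold higher in both libraries, and of the naive and circulation list 3 of 11. Of 12 effector differentiation genes compared, none was 2-fold higher and 4 (S100a4, S100a6, Anxa1 and Itgb1) were 2-fold lower in both libraries, with medians of -0.97 and -0.86 beside -0.21 in each library over all genes compared. S100a4 was at 234 CPM in CD8 and 741 CPM in CD4-gated cells of M-Cd36-/-, with a log2 ratio of -1.66 there and -1.18 in M-Cd36 fl/fl. Among the 12 lowest genes, Tnfrsf4 (OX40) had 1.56 CPM in CD8 and 77.3 CPM in CD4-gated cells of M-Cd36-/-, and 0 and 62.6 CPM in M-Cd36 fl/fl. Izumo1r (folate receptor 4) ratios were -4.82 and -3.58, and those of Maf, a factor of helper cells, -3.53 and -2.36. Cst3, H2-Aa, H2-Eb1, H2-Ab1 and Cd74 were also among the 12 lowest. Without the myeloid-high cells of both populations their ratios lay between -0.73 and 0.07. All of them are among the 11 genes that set the myeloid-high limit, so a shift was built into the choice of cells. Without the myeloid-high cells the counts became 21 (1.07%) higher and 64 (3.26%) lower.

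Against NK cells, which share the killing machinery, CD8 T cells held far less of it and more of the T cell and circulation genes. Of 2200 genes compared, 43 (1.95%) were at least 2-fold higher in CD8 T cells in both libraries and 206 (9.36%) at least 2-fold lower. Without the myeloid-high cells the counts were 45 (2.01%) and 242 (10.8%). Gzma was at 73.2 CPM in CD8 T cells and 6214 CPM in NK cells of M-Cd36-/-, and at 42.2 and 6121 CPM in M-Cd36 fl/fl. All 13 killer lectin receptor genes compared were at least 2-fold lower in both libraries, Klrb1c (NK1.1) with log2 ratios of -5.24 and -4.72 and Klrd1 with -2.21 and -2.51. Ccl5, at log2 ratios of -1.34 and -2.18, was closer. Only 3 of the 14 killer lectin receptors on the list reached 50 CPM in CD8 T cells of either library. The others compared entered only through their level in NK cells, which favours a lower value in CD8 T cells. On the higher side, Ccr7 had ratios of 4.57 (3.61 to 5.72) and 4.06 (2.99 to 5.40), and Il7r of 3.00 (2.47 to 3.58) and 3.88 (3.13 to 4.73). Dapl1 had 131 and 147 UMIs in CD8 T cells and 1 UMI in NK cells of each library. Bcl11b, a factor of T cell commitment, had ratios of 3.23 and 4.22. Of the naive and circulation list, 7 of 11 compared genes were at least 2-fold higher in both libraries.

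Between the genotypes, Cd36 itself was near the limit of detection in CD8 T cells. It had 7 UMIs in 7 M-Cd36-/- cells (10.9 CPM, 4.38 to 22.5) and 15 UMIs in 15 M-Cd36 fl/fl cells (19.2 CPM, 10.7 to 31.6), with overlapping intervals. The log2 ratio was -0.81 (-2.35 to 0.57). In macrophages of the same libraries it was at 175 and 251 CPM. The labels do not say which exons are floxed, so 3' end counts may lie outside the deleted part and do not check the deletion. Lyz2, the gene whose promoter drives Cre, was at 1377 CPM in M-Cd36-/- and 2933 CPM in M-Cd36 fl/fl members, a log2 ratio of -1.09 (-1.20 to -0.98) that was -0.28 without the myeloid-high cells. Lyz2 is among the 11 genes that set the myeloid-high limit, so a shift was built into the choice of cells.

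Few genes differed in size. Of 1919 genes with at least 50 CPM in either library, 10 (0.521%) were at least 2-fold higher in M-Cd36-/- CD8 T cells and 16 (0.834%) at least 2-fold lower, while 91% lay within 1.5-fold. The median log2 ratio was 0.05. Without the myeloid-high cells the counts were 18 (0.922%) and 20 (1.02%) of 1952. The higher genes included Lyz1, Clec10a, Klrc1, Ckb, Cxcr6, Apoe, Tpm3-rs7, Klrk1 and Akirin1. Lyz1, Clec10a and Apoe are macrophage or dendritic cell genes, and Clec10a came from 5 and 6 cells, 1 of which held 19 of its 34 UMIs in M-Cd36-/-. Tpm3-rs7 and Gstp1 had ratios of 1.23 and 1.00 in CD8 T cells, and from 0.72 to 1.02 in the CD4, NK, B cell and macrophage gates. These genes share 51.6% and 47.8% of the 31-base words of their last 400 transcript bases with other genes in GENCODE M21, so their counts are uncertain.

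**Figure D4:**
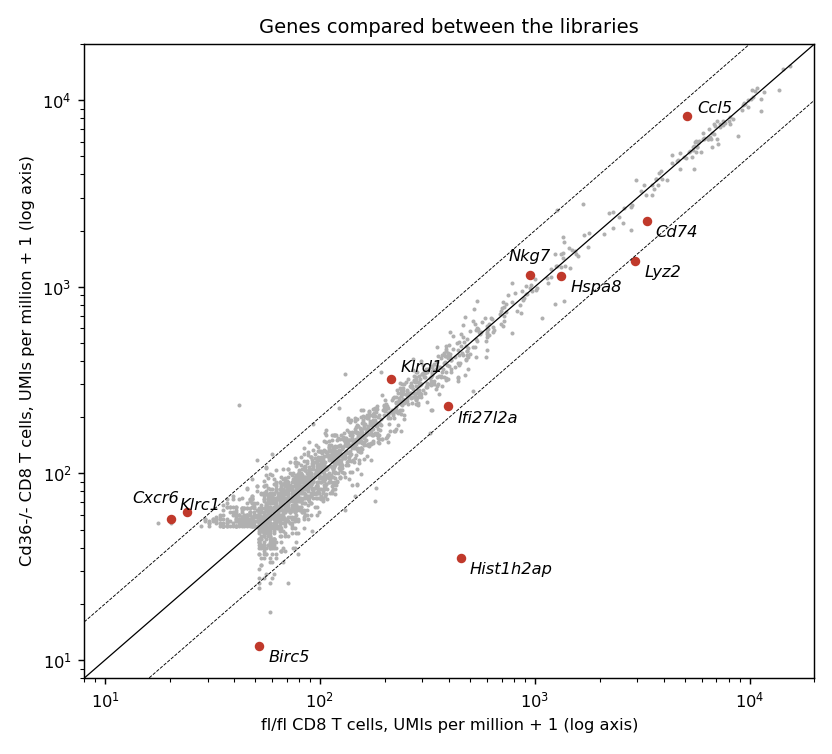
Level of 1919 compared genes in CD8 T cells of the M-Cd36-/- library (vertical) against the M-Cd36 fl/fl library (horizontal), as CPM + 1 on log axes. The solid line marks equal levels and the dashed lines 2-fold. Most points lie between the dashed lines, Klrc1 and Cxcr6 above them, and Hist1h2ap, Birc5 and Lyz2 below.

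Some lectin receptors and Ccl5 were among the genes with higher levels in M-Cd36-/- members. Klrc1 had 36 UMIs in 25 M-Cd36-/- cells and 15 UMIs in 13 M-Cd36 fl/fl cells, a log2 ratio of 1.55 (0.64 to 2.52), though 74.9% of its 3' words are shared, mostly with Klrc2. Klrk1 had 81 UMIs in 42 cells and 46 UMIs in 24 cells, with a ratio of 1.10 (0.56 to 1.66). Klrd1 was at 319 and 214 CPM, with a ratio of 0.58 (0.28 to 0.88), under the 2-fold limit. It was detected in 37.1% of thinned M-Cd36-/- members and 23.4% of thinned M-Cd36 fl/fl members, a difference of 13.7 points (3.25 to 23.7), but this rested on the depth chosen. Unthinned the difference was 8.52 points (-2.68 to 19.5), and with 1000 UMIs per cell 7.29 points (-2.52 to 16.9). Of all 14 receptors on the list 8 were higher, 5 lower and 1 was at 0, near the 56.5% higher over all genes compared. Only 3 of the receptors were compared, all of them higher, Klrc1 only through its level in M-Cd36-/- members. Klra7, an inhibitory Ly49 receptor gene under 50 CPM in both libraries, was lower, with 11 and 27 UMIs (-1.01, -2.17 to 0.05). In NK cells, which carry the same receptors, the ratios of Klrc1, Klrd1 and Klrk1 were 0.66, 0.28 and 0.00. Ccl5 stood at 8194 CPM in M-Cd36-/- and 5094 CPM in M-Cd36 fl/fl members, a ratio of 0.69 (0.63 to 0.75), which was 0.58 without the myeloid-high cells. Its ratio was 0.44 (0.38 to 0.50) within Ccl5-high cells alone, 0.83 in CD4-gated cells and -0.16 in NK cells. Those Ccl5-high cells held medians of 46 and 44 Ccl5 UMIs, at median depths of 3253 and 3992 UMIs. The intervals leave out the spread from cell to cell, and the part of depth was not tested. The homing receptor Cxcr6, known from tissue T cells and NK cells, had 39 UMIs in 21 cells and 18 UMIs in 16 cells, with a ratio of 1.40 (0.56 to 2.29). Cxcr6 too was compared only through its level in M-Cd36-/- members.

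The granule genes differed little. Of 14 members of the cytotoxic granule list 9 were higher, 4 lower and 1 was at 0, genes under 50 CPM included. All 6 compared were higher, beside 56.5% higher over all genes compared. The 6 compared had ratios from 0.08 for Cst7 to 0.79 for Gzma, which was compared only through its level in M-Cd36-/- members, and none reached 2-fold. Nkg7 was at 1151 CPM in M-Cd36-/- and 948 CPM in M-Cd36 fl/fl members (0.28, 0.13 to 0.43). Of the memory list, Ly6c2 was at 687 and 471 CPM (0.55, 0.34 to 0.75), with 57.7% of its 3' words shared, mostly with Ly6c1, and Il2rb was at 160 and 162 CPM. Id2 was at 411 and 270 CPM, a ratio of 0.61 (0.34 to 0.88). MHC class I genes, which present peptides to CD8 T cells, had a median of 0.21, with 6 of 8 compared genes higher and none 2-fold. For B2m, the shared light chain, the ratio was 0.33 (0.25 to 0.41) in CD8 T cells and 0.26, 0.23, 0.20 and 0.34 in the CD4, NK, B cell and macrophage gates.

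Naive and antigen receptor genes were at like levels. Of 11 naive and circulation genes compared, 7 were higher and 4 lower, none by 2-fold, with a median of 0.02 beside 0.05 over all genes, of which 56.5% were higher. Ccr7 was at 263 CPM in M-Cd36-/- and 193 CPM in M-Cd36 fl/fl members (0.45, 0.12 to 0.77). Lef1 had 182 and 180 CPM and Klf2, a factor that holds cells in circulation, 731 and 730 CPM. The 16 antigen receptor signalling genes compared had a median of 0.05, with none past 2-fold. The costimulatory receptor Cd28, at 146 and 88.2 CPM (0.73, 0.27 to 1.20), had the largest ratio among them. The integrin, effector differentiation, chemokine receptor and interferon gamma lists had medians of -0.03, -0.07, -0.02 and 0.13, the survival and glycolysis lists of -0.12 and -0.14, and none of their compared genes reached 2-fold except Cxcr6 and Cxcr4 among the chemokine receptors and Bcl2l11 among the survival genes. Cxcr6 was compared only through its level in M-Cd36-/- members, and Cxcr4 and Bcl2l11 only through theirs in M-Cd36 fl/fl members. The galectin gene Lgals1, of the effector differentiation list, was at 562 and 780 CPM (-0.47, -0.66 to -0.28).

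Cell cycle genes were lower in M-Cd36-/- members, and few cells decided it. Of all 15 on the list 14 were lower and 1 higher. Of 7 compared, 6 were lower and 2 at least 2-fold lower (Birc5 and Pclaf, both compared only through their level in M-Cd36 fl/fl members), beside 43.5% lower and 0.834% at least 2-fold lower over all genes compared. At least 4 UMIs of the cycling group (Mki67, Top2a, Stmn1 and Birc5) were present in 3 M-Cd36-/- and 5 M-Cd36 fl/fl cells. The top cell held 21 of 79 such UMIs in M-Cd36-/- and 87 of 191 in M-Cd36 fl/fl, where it was also the deepest member, with 16641 UMIs. That deepest member had only 1 UMI over Cd8a and Cd8b1. The replication histone Hist1h2ap had 22 UMIs in 18 M-Cd36-/- cells and 352 UMIs in 14 M-Cd36 fl/fl cells, 199 of them in 1 cell, a ratio of -3.72 (-4.41 to -3.09). All of its 3' words are shared with other genes, and its ratio was 1.41 in CD4-gated cells and 2.69 in NK cells. Without the cells of 4 or more cycling UMIs its ratio was 0.97, and that of the survivin gene Birc5 was 0.21, against -2.23 with them. The median of the list was then 0.18, and it was 0.05 with at least 2 CD8 UMIs per member, 0.45 when cells were gated after thinning to 1500 UMIs and -0.09 as a mean over cells. The share of members with a cycling UMI was 14.1% and 13.0% after thinning, beside 15.1% and 13.4% in macrophages.

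Heat shock and glucocorticoid-induced genes were mostly at lower levels in M-Cd36-/- members. Of 8 heat shock genes 7 were lower and 1 was at 0, and of 11 glucocorticoid-induced genes 9 were lower and 2 higher, genes under 50 CPM included. Of those compared, all 5 heat shock genes and 5 of 6 glucocorticoid-induced genes were lower, beside 43.5% lower over all genes compared. The chaperone gene Hsp90aa1 was at 336 CPM in M-Cd36-/- and 472 CPM in M-Cd36 fl/fl members (-0.49, -0.74 to -0.24). Dnajb1, a cochaperone gene compared only through its level in M-Cd36 fl/fl members, was at 42.1 and 76.7 CPM (-0.87, -1.58 to -0.19). None of the 5 heat shock genes compared reached 2-fold. Txnip, an inhibitor of glucose uptake, was at 217 and 332 CPM (-0.62, -0.93 to -0.32), and the chemokine receptor Cxcr4 had 17 UMIs in 15 cells and 42 UMIs in 36 cells (-1.02, -1.93 to -0.18). Single genes of other lists were lower too. The pro-death gene Bcl2l11 (Bim) had 16 and 40 UMIs (-1.04, -1.97 to -0.17), while the survival list had a median of -0.12. Bcl2l11 and Cxcr4 were both compared only through their level in M-Cd36 fl/fl members. The interferon-induced gene Ifi27l2a was at 227 and 395 CPM (-0.80, -1.09 to -0.51) while its ratio was -0.09 in CD4-gated cells, -0.16 in NK cells and -0.23 in macrophages. The interferon-induced genes Bst2, Ifi203 and Ifi209 lay between -0.23 and 0.03, and the type I interferon list had a median of -0.07. The ubiquitin ligase gene Mycbp2 had 40 UMIs in 32 cells and 102 UMIs in 69 cells (-1.07, -1.63 to -0.52). The median depth of members was 3470 and 4321.5 UMIs, and its part in these differences was not tested.

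**Figure D5:**
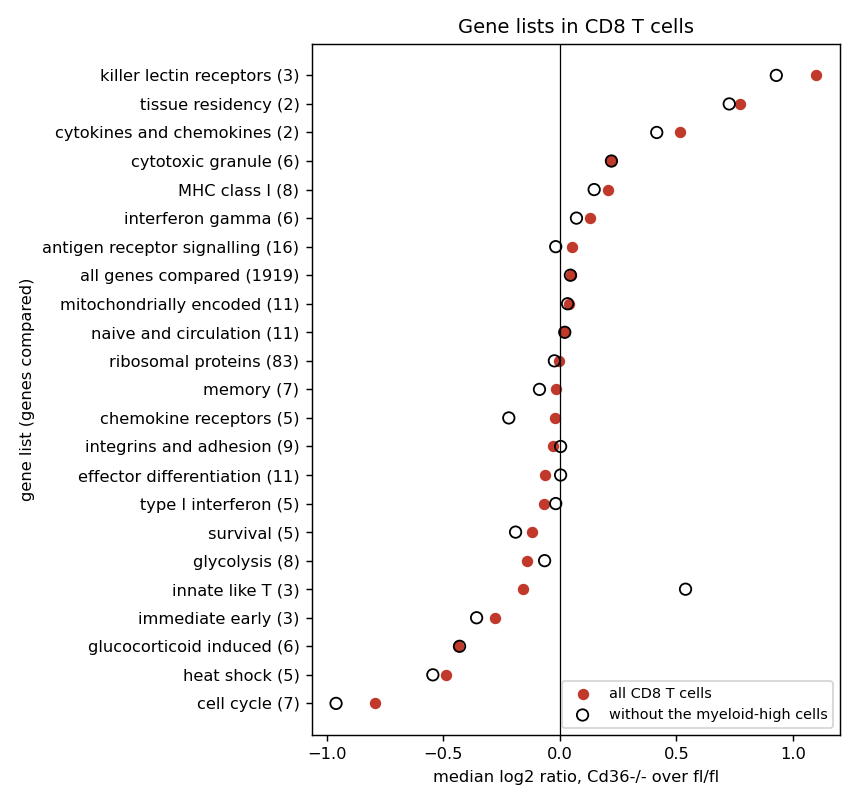
Median log2 ratio of M-Cd36-/- over M-Cd36 fl/fl CD8 T cells for each gene list (number of compared genes in brackets), with all members (filled) and without the myeloid-high cells (open). Killer lectin receptors stand highest at 1.10 and cell cycle genes lowest at -0.79, and the innate-like list is the one that moves most without the myeloid-high cells. That list holds Fcer1g and Tyrobp, which are among the genes that set the myeloid-high limit.

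Part of the lower side moved when the myeloid-high cells were left out. H2-Ab1 was at 841 CPM in M-Cd36-/- and 1363 CPM in M-Cd36 fl/fl members (-0.70), and 0.08 on the log2 scale without them. Cd74, H2-Eb1 and H2-Aa had ratios of -0.56, -0.66 and -0.62 with these cells and -0.02, 0.38 and 0.33 without. For Tppp3 the ratio was -1.75 with these cells and 0.02 without. The innate-like list, which holds Fcer1g and Tyrobp, had a median of -0.16 with these cells and 0.54 without. H2-Ab1, Cd74, H2-Eb1, H2-Aa, Fcer1g and Tyrobp are among the genes that set the myeloid-high limit. For them a shift was therefore built into the choice of cells. Of the genes named in this paragraph, only Tppp3 played no part in that choice.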

How the data were processed

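The authors deposited raw UMI counts per gene and barcode for 2 droplet libraries (10x 3' v2, 31053 genes), each pooled from 4 replicates. Per the submitters' processing notes they were made with Cell Ranger on mm10, and per the file headers the software version was 3.0.0. Counts were summed over the members of a gate in each library and scaled to UMIs per 1000000 (CPM). The genes of the gates were left out of every count of genes. Ratios carry exact conditional binomial intervals, CPM exact Poisson intervals, shares Clopper-Pearson intervals, all at 95%, and differences of shares an interval combined from these. A gene was compared at 50 CPM or more in at least 1 population, and called at 2-fold. Genes were named by a rule: Cd36, Lyz2, the members of the gene lists, and the 12 highest and 12 lowest by the interval bound nearest to 0, leaving out receptor variable, ribosomal, mitochondrial, immunoglobulin, haemoglobin, sex-linked and unnamed genes and genes under 1/5 of their level in the macrophage, B cell or NK cell gates. Genes beside Ccl5 and those listed as past 2-fold were named after their values were seen. Some items are not reported here. The members and lists were chosen with earlier results of these data known. Doublets were called with Scrublet in scanpy 1.11.5 on barcodes of at most 20% mitochondrial UMIs. The ratio code was tested on simulated data. GENCODE M21, which gave positions and 3' words, holds 30934 of the 31053 identifiers. PCR and capture add error that the intervals do not cover.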

Additional observations from a re-analysis of the deposited data

How the results depend on the processing

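The differences between the genotypes in the share of CD8 T cells and in the shares of members with effector or cycling genes kept intervals that include 0 under every alternative gate, depth and doublet setting tried. The shares themselves moved with depth. Gating after thinning to 1500 UMIs gave 0.705% and 0.57% CD8 T cells in M-Cd36-/- and M-Cd36 fl/fl. Members with a cycling UMI were 26.2% and 26.6% unthinned, 14.1% and 13.0% at 1500 UMIs and 11.1% and 7.14% at 1000 UMIs, and those with an effector UMI 80.1% and 72.7% at 1000 UMIs. The number of genes past 2-fold between the genotypes did move, and so rests on the filter and the gate. With all members it was 10 higher and 16 lower in M-Cd36-/-. The higher count was 16 without the Scrublet doublets, 19 with at least 2 CD8 UMIs, 29 with a mean over cells, 18 without the myeloid-high cells and 22 without the cycling cells (the last 2 chosen after seeing the data). Higher and lower counts were 22 and 34 with C1q under 5 per 10000, 84 and 32 when cells were gated after thinning to 1500 UMIs, 21 and 25 with free RNA subtracted, and 5 and 5 of 948 genes at 100 CPM. They were 135 and 146 of 4509 genes at 20 CPM, 917 and 911 of 9880 without a CPM filter, and 76 and 107 of 3896 when totals left out mitochondrial, ribosomal and immunoglobulin genes, settings that compare more genes of low count. Against CD4-gated cells, 140 genes were lower with at least 2 coreceptor UMIs, and 43 were higher and 206 lower at 20 CPM. Against NK cells, 99 were higher and 431 lower at 20 CPM. Gating after thinning turned the ratios of Hist1h2ap, Birc5, Tppp3 and Pclaf to 0.92, 0.37, 2.86 and 1.63. Leaving out the cycling cells turned those of Hist1h2ap and Birc5 to 0.97 and 0.21, leaving out the myeloid-high cells that of Tppp3 to 0.021, and a mean over cells that of Pclaf to 0.12. Except where fewer cells or more genes enter by construction, the cause was not tested. Of 465 alternative values for the 26 genes named by rule, 451 kept the sign, as did 314 of 359 for the list medians. Depth limits most genes of the lists, since counts under 50 CPM rest on few UMIs. No paired analysis was possible because each genotype has 1 library.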
